A study of Homo sapiens with 8 samples.

Results

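The 10 genes described here, MTDH, PDK1, JAK2, IGF1R, MTPN, SP1, USP1, C1QBP, ADIPOR2 and EIF4G3, had been reported as targets of miR-375 in pancreatic islets or tumours before this series was made. The symbol PDK1 is an exception, since in those reports it stands for another gene, PDPK1, as set out below. They were found on the arrays by gene name and were 10 of 36337 gene names, read by 12 of 50599 probes. EIF4G3 had 3 probes and each of the other genes had 1. The rule was the gene name and used no measured value, although the set was drawn up with earlier results of these data known. The question was how the transcripts of these genes behaved in thyroid cells when miR-375 was added or inhibited.

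RNA was measured on 8 one-colour Agilent expression arrays, 2 per group. Nthy-ori 3-1 cells, an immortalized human line of normal thyroid follicular cells, received pre-miR-375, a synthetic mimic of the miRNA, or a control. TT cells, a human line from a medullary thyroid carcinoma, which arises from the calcitonin-producing C cells, received AntagomiR-375, an inhibitor, or a control. All cells were transfected with Lipofectamine RNAiMAX for 48 h, at 5 nM for the mimic and 20 nM for the antagomiR according to the labels; the methods of the study state other concentrations. The labels call the control groups CTL, without naming the reagent, and each treatment was tested in a single line. The transfection methods of the study name pre-miR-CTL for Nthy-ori 3-1 cells and antagomiR-CTL for TT cells. Its methods for these arrays name pre-miR-CTL as the only control reagent and call the TT control CTL. The reagent of the TT control arrays is therefore not clear. The RNA integrity number was 8 for both TT control samples and 9 for the 6 other samples. Replicates with the same number in one line shared a slide, and none of the 4 slides carried both lines, so treated and control arrays were compared as 2 slide pairs per line. The mimic response can therefore be read in follicular cells and the antagomiR response in medullary carcinoma cells, not both in one line. In such bulk RNA, fewer cells with a transcript and less transcript per cell cannot be told apart.

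A microRNA guides the Argonaute protein to messenger RNAs that pair with its seed, a short stretch near its 5′ end, and the bound messengers are translated less or degraded. miR-375 is abundant in pancreatic islets and in other neuroendocrine cells, where it is known for a part in insulin secretion and islet cell mass. Adding a mimic is meant to lower its target messengers and an antagomiR to release them. An array reads transcript abundance only, so repression of translation alone would not be seen.

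The arrays held 0 probes for the miR-375 gene itself, so the level of the miRNA was not checked by these data. The methods of the study state that RT-PCR for the miRNA was used to check transfection. Its mature strands are shown because the seed letters searched in the probes below come from the first one. Sequences are from RefSeq, written 5′ to 3′, with bases 2 to 8 in capitals. The 3p strand is at chr2:219001648-219001669 and the 5p strand at chr2:219001682-219001704, both on the minus strand of GRCh38.p14.
hsa-miR-375-3p: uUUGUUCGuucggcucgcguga
hsa-miR-375-5p: gCGACGAGccccucgcacaaacc

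Transcript letters that pair with bases 2 to 7 of the 3p strand are GAACAA. A longer match with a further letter at its end is GAACAAA, which contains the shorter one. Both were searched in the transcript sense and, for comparison, on the other strand of each probe. Full transcripts were not searched here, and the probe sequences given by the array files cover only a short part of each. Among the 12 probes of the reported targets, 1 held such letters, the probe of C1QBP with GAACAAA. Of all 50599 probes, 2.21% held GAACAA and 0.775% held GAACAAA in the transcript sense, against 2.0% and 0.779% on the other strand. A stretch of the C1QBP probe is shown with the match in capitals, at chr17:5336268-5336297 on the minus strand of hg19, the build of the array files.
C1QBP: ctttggccagtGAACAAAtcctactctgaa

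For 2 genes the name alone does not say which transcript was read. The gene called PDK1 in the miR-375 literature is 3-phosphoinositide-dependent protein kinase 1, whose current symbol is PDPK1, while the PDK1 probe of this array belongs to pyruvate dehydrogenase kinase 1. Both are therefore reported. The first bases of their main probes, in the hg19 build, are at chr2:173463273-173463302 for PDK1 and at chr16:2652575-2652604 for PDPK1, both on the plus strand.
PDK1: tggacacgaagtgatttttgtaacctgagc
PDPK1: gctggtaaaagcctctattacgactgtaag

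The 3 EIF4G3 probes read different parts of the gene, at chr1:21133963-21133992, chr1:21268027-21268056 and chr1:21219884-21219913 for the stretches shown, on the minus strand of hg19. The first was the brightest and stands for the gene below. The third is assigned by the array design to a single Ensembl transcript and lists 0 RefSeq transcripts.
EIF4G3 main probe: tttgctgcggatgttttttgattgtctata
EIF4G3 second probe: gtagaagcagatgggcaaacagaagagatt
EIF4G3 probe of the Ensembl transcript: tctagtcaagaagaagaagaagaggcaaag

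The remaining probes lay, in hg19, at chr12:1897392-1897451 for ADIPOR2, chr15:99507366-99507425 for IGF1R, chr9:5127355-5127414 for JAK2, chr7:135612259-135612318 for MTPN, chr12:53810152-53810211 for SP1 and chr1:62917270-62917329 for USP1. The array files do not assign probes to exons or untranslated regions. The USP1 value was the average of 10 spots and the others came from 1 spot each.

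Levels are given as the log2 of the background-subtracted signal after quantile normalization of the 8 arrays, so a difference of 1 is a doubling of signal, and levels of different probes are not set against each other. A spot counted as well above background by the scanner software is called detected. Between 31756 and 37055 of the 58717 gene spots of an array were detected and 0 were saturated. All 10 genes were detected on all 4 Nthy-ori 3-1 arrays, and 9 of them, all but JAK2, on all 4 TT arrays.

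**Figure D1:**
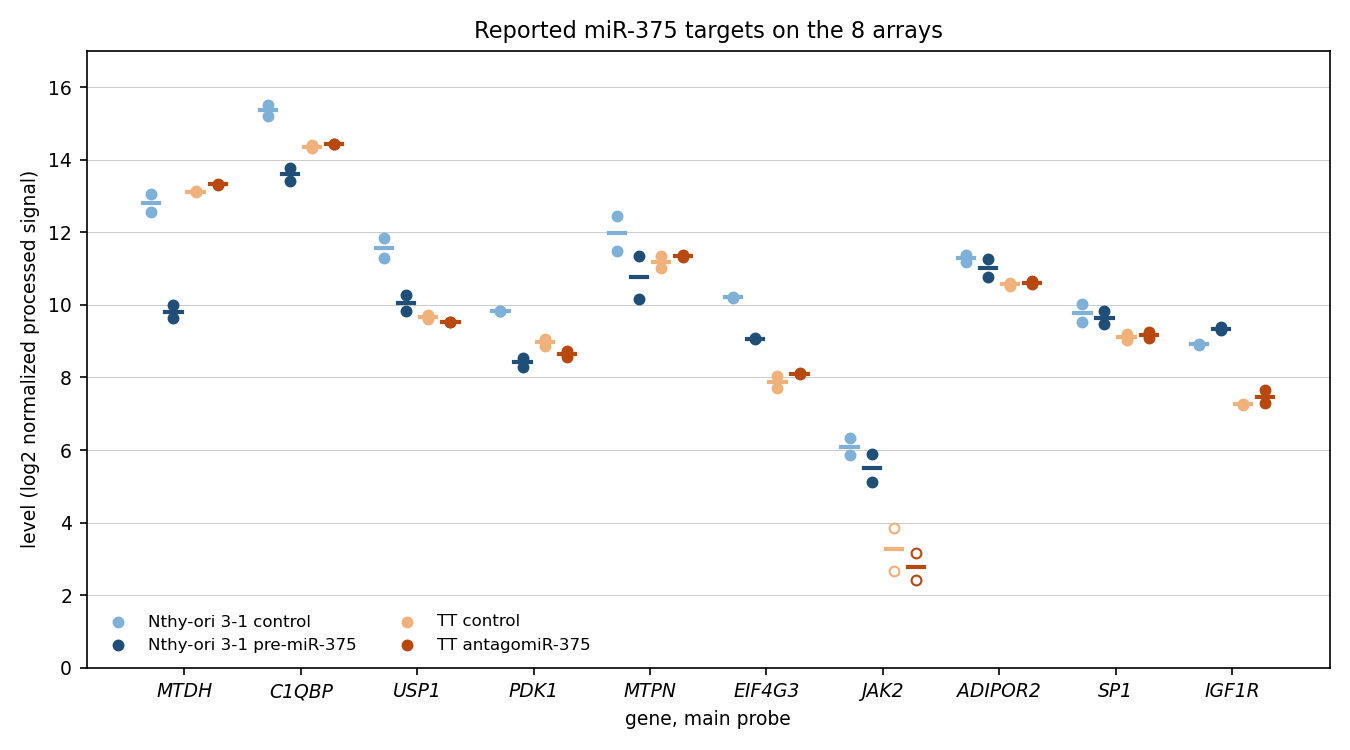
Level of the main probe of each gene (log2 normalized processed signal) on each array, with points for arrays, bars for the mean of the 2 arrays of a group, and open points where a group's arrays were not well above background. MTDH, C1QBP, USP1, PDK1, MTPN and EIF4G3 sit lower on both pre-miR-375 arrays than on both Nthy-ori 3-1 control arrays, whereas the TT groups lie close together.

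In Nthy-ori 3-1 cells, 9 of the 10 reported targets had lower levels with pre-miR-375 than with the control in both slide pairs, where 27.8% of all gene names, and 32.8% of those detected on all 4 arrays, did so. IGF1R was the exception. For 6 genes, MTDH, C1QBP, USP1, PDK1, MTPN and EIF4G3, the log2 fold change was −1 or lower at an average level of at least 6, the limits on size and expression that the study's methods set in this line. Of all gene names 1.43% passed these limits, and 2.77% of those detected. The same 6 genes were the ones whose pre-miR-375 arrays lay below both control arrays, which held for 15.1% of all gene names. The median log2 fold change of the 10 genes was −1.17, against 0.00391 over all gene names and 0.0398 over the detected ones. These figures, like the counts below, include the PDK1 of the array and not PDPK1. The main probe of PDPK1 had pair differences of −0.08 and 0.02 and met none of these criteria. With PDPK1 in place of PDK1 each count in this paragraph would be lower.

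None of these differences passed the adjusted test in the main setting. With 1 residual degree of freedom, limma's smallest Benjamini-Hochberg adjusted p over the 50594 probes was 0.318, 0 of the 10 genes passed 0.05, and 0% of all gene names did. At an unadjusted p of at most 0.05, 7 of the 10 genes were lower (7.4% of all gene names), the 6 above and JAK2, and 1, IGF1R, was higher (7.48%). The call depended on the signal used. With the normexp background correction, with the uncorrected median signal and with the deposited log2 table, the same 6 genes passed and were lower, with adjusted p of 0.0234 to 0.0291, 0.0382 to 0.0469 and 0.037 to 0.045, where 2.18%, 0.861% and 0.881% of gene names passed as lower. With 2 against 2 arrays and the slide pairs ignored, the smallest two-sided p of an exact permutation test for a single gene is 0.333. Permuting within the pairs allows fewer arrangements still.

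MTDH, also known as AEG-1 or metadherin, is a scaffold protein associated with tumour growth and metastasis. Its level was 12.54 and 13.04 on the control arrays, compared with 9.63 and 9.997 under pre-miR-375. Both treated arrays lay far below both control arrays. The log2 fold change was −2.98 (SE 0.09, n = 2 pairs), a 7.9-fold lower signal, and the pairs gave −2.92 and −3.04.

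C1QBP is a mostly mitochondrial protein that also binds the globular heads of complement C1q. Its level was 15.21 and 15.50 on the control arrays, compared with 13.42 and 13.77 under pre-miR-375. The groups did not overlap, and the pairs differed by −1.79 and −1.74. The log2 fold change was −1.76 (SE 0.08, n = 2 pairs). This is the gene whose probe holds the GAACAAA letters shown above.

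USP1 is a deubiquitinase that removes ubiquitin from FANCD2 and PCNA in DNA repair. Its level was 11.30 and 11.85 on the control arrays, compared with 9.83 and 10.27 under pre-miR-375. The groups did not overlap, with a log2 fold change of −1.53 (SE 0.09, n = 2 pairs).

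PDK1, the pyruvate dehydrogenase kinase that inhibits entry of pyruvate into the citric acid cycle, had a level of 9.84 and 9.82 on the control arrays, compared with 8.29 and 8.55 under pre-miR-375. The control arrays lay almost together and both treated arrays lay below them, with a log2 fold change of −1.42 (SE 0.13, n = 2 pairs). PDPK1, the kinase that activates AKT, had a level of 8.96 and 8.81 on the control arrays, compared with 8.88 and 8.83 under pre-miR-375. These groups overlapped, and the log2 fold change was −0.03 (SE 0.09, n = 2 pairs) for the main probe and −0.04 for its second probe. The gene meant in the older literature was thus measured at nearly equal levels, and the gene that shares its former symbol at lower levels.

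MTPN, myotrophin, is an ankyrin-repeat protein that binds the actin capping protein and was among the first miR-375 targets described in islet beta cells. Its level was 11.48 and 12.46 on the control arrays, compared with 10.16 and 11.34 under pre-miR-375. The slides differed by about as much as the treatment, and the highest treated array lay just below the lowest control array. Within slides the differences were −1.32 and −1.11, and the log2 fold change was −1.22 (SE 0.11, n = 2 pairs).

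EIF4G3 encodes a scaffold of the cap-binding complex that starts translation. On its main probe the level was 10.19 and 10.21 on the control arrays, compared with 9.10 and 9.05 under pre-miR-375, with a log2 fold change of −1.13 (SE 0.08, n = 2 pairs). The second probe had a log2 fold change of −1.02. The third probe went the other way, with 5.52 and 5.55 on the control arrays, compared with 6.05 and 5.71 under pre-miR-375, a log2 fold change of 0.35 (SE 0.15, n = 2 pairs). The probes of this gene therefore disagreed, and with their mean in place of the main probe the log2 fold change was −0.60.

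The 4 other genes showed smaller differences. JAK2, a tyrosine kinase that signals from cytokine receptors to STAT proteins, had a level of 5.86 and 6.32 on the control arrays, compared with 5.12 and 5.88 under pre-miR-375, with a log2 fold change of −0.59 (SE 0.13, n = 2 pairs). The groups overlapped, although each pair differed in the same direction. ADIPOR2, a receptor for adiponectin, had a log2 fold change of −0.27 (SE 0.14, n = 2 pairs), and SP1, a zinc finger transcription factor that binds GC-rich promoters, one of −0.13 (SE 0.10, n = 2 pairs). For both, the groups overlapped.

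IGF1R, the receptor tyrosine kinase for insulin-like growth factors, was the only reported target with a higher level. It had 8.90 and 8.92 on the control arrays, compared with 9.29 and 9.40 under pre-miR-375. The groups did not overlap, as for 16% of all gene names in this direction, and the log2 fold change was 0.44 (SE 0.08, n = 2 pairs; limma's adjusted p = 0.329).

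**Figure D2:**
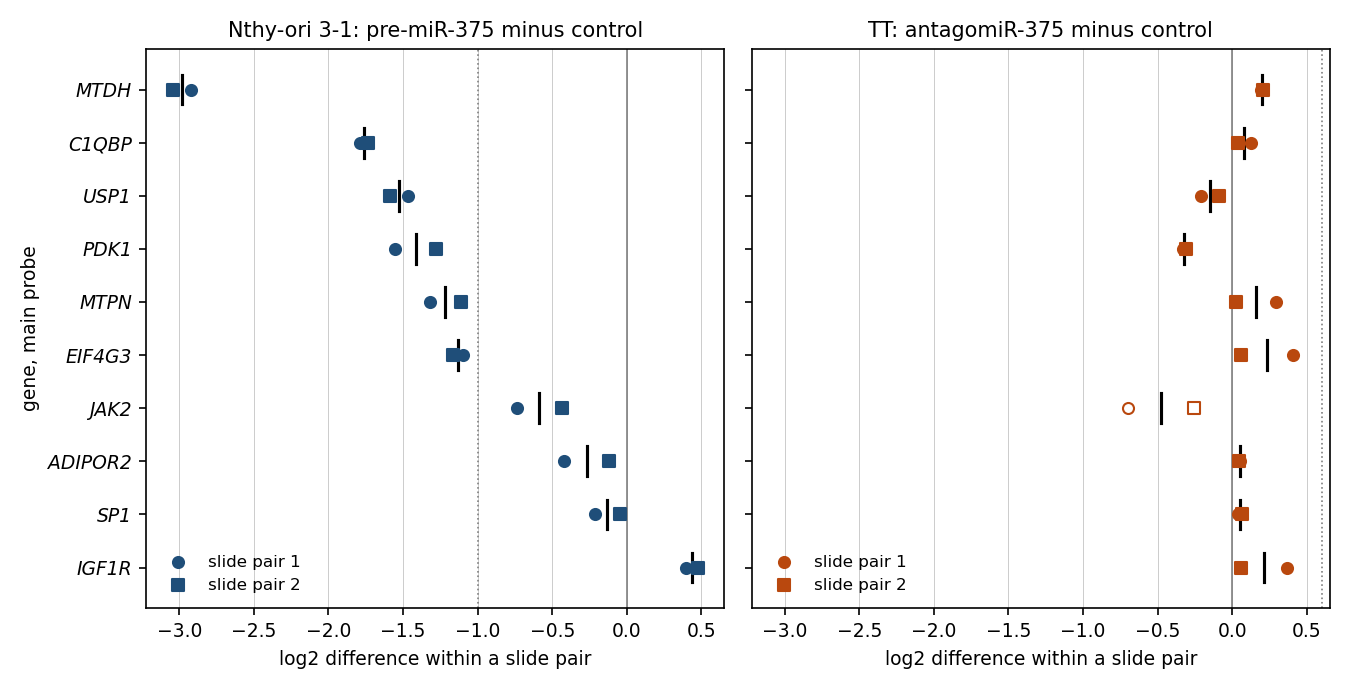
Difference between the treated and the control array of each slide pair (log2), in Nthy-ori 3-1 cells on the left and TT cells on the right, with a circle and a square for the pairs, a bar for their mean, open symbols for JAK2 where it was not well above background, and dotted lines at the fold limits of −1 and 0.6. On the left 6 genes lie beyond −1 in both pairs, and on the right 0 genes reach 0.6.

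**Figure D3:**
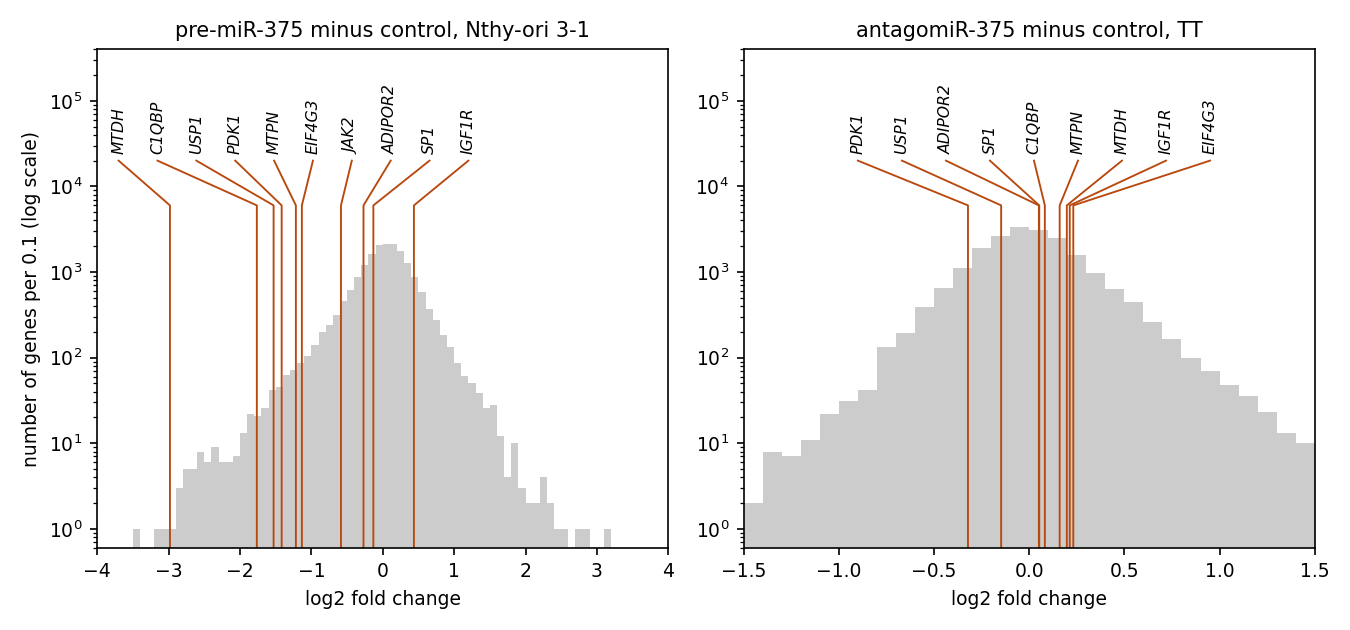
Number of genes per bin of log2 fold change (grey, log scale) among genes well above background on every array of the line, with the reported targets marked by lines. On the left 6 of the 10 lie below −1, where 2.77% of these genes lie at an average of at least 6; on the right the 9 detected targets lie between −0.32 and 0.23, within the bulk of all genes.

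Several markers of C cells and of other cell types were higher on the mimic arrays. Of 7 C cell markers, read on main probes, 1, RET, was well above background on both Nthy-ori 3-1 control arrays and 6 were on both pre-miR-375 arrays. Of all 58717 gene spots, 32762 and 32551 were detected on the control arrays and 31756 and 35152 on the mimic arrays. Without overlap 6 of the 7 were higher, as were 16% of all gene names. The log2 of the summed signal of the 7 was 7.07 and 6.95 for the controls and 9.16 and 9.26 for the mimic. In TT cells it was 18.91 to 19.07. The largest marker value was CALCA on the first mimic array, at 8.12, and SCG2 on the second, at 8.42. SYP, a synaptic vesicle protein, had a level of 1.91 and 2.11 on the control arrays, compared with 5.49 and 6.15 under pre-miR-375. SCG2 had 2.10 and 4.62 against 6.72 and 8.42, CHGA 3.46 and 2.09 against 4.91 and 5.13, and CHGB 3.72 and 4.13 against 5.19 and 6.50. CALCA, which encodes calcitonin, had 3.91 and 3.57 against 8.12 and 4.51 on 1 of its 3 probes. The other 2 CALCA probes, at 18.1 to 18.4 in TT cells, were not well above background on any Nthy-ori 3-1 array and had log2 fold changes of 0.31 and 0.21. RET had 6.37 and 5.83 against 6.19 and 5.50 on its main probe. Its second probe, not well above background on any Nthy-ori 3-1 array, went the other way, with 2.41 and 1.99 against 2.60 and 2.78. CEACAM5 was not well above background on any Nthy-ori 3-1 array. On their main probes all 3 markers of other cell types were also higher in both pairs and without overlap, as were 32.5% and 16% of all gene names. COL1A1, a collagen of fibroblasts, had 14.21 and 13.39 against 14.83 and 14.70, and PTPRC, a marker of leukocytes, 6.19 and 6.17 against 6.34 and 6.28, while PECAM1, a marker of endothelium, was not well above background on any Nthy-ori 3-1 array. The further PECAM1 probes had log2 fold changes of −0.08 and −0.16 with groups that overlapped. Those of PTPRC had 0.62 without overlap, and 0.02, −0.05 and −0.005 with overlap. Higher levels were thus seen in both lists on main probes, not on all probes, and the part of either list in the result was not tested. Of 7 follicular cell markers, PAX8, FOXE1 and TG were detected on all Nthy-ori 3-1 arrays, and NKX2-1 and TSHR were not detected on any. FOXE1 and PAX8 were lower without overlap, as were 15.1% of all gene names, with log2 fold changes of −0.35 (SE 0.10) and −0.30 (SE 0.12). TG had −0.12 with overlap. SLC5A5 and SLC26A4 were each detected on 1 of the 2 control arrays, with log2 fold changes of 0.09 and −1.63. For SLC26A4, not detected under pre-miR-375, the pairs gave −4.55 and 1.30 and are not read as a change.

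In TT cells, the 10 reported targets differed little between antagomiR-375 and control. By limma 0 of 10 passed the adjusted test (0% of all gene names, smallest adjusted p 0.512) and 0 of 10 had an unadjusted p of at most 0.05 in either direction (4.92% of all gene names higher and 4.89% lower). None reached the log2 fold change of 0.6 that the study's methods set in this line, which 1.3% of all gene names did at an average above 6. Levels were higher with the antagomiR in both pairs for 7 genes, where 31.2% of all gene names were, and lower in both for PDK1, USP1 and JAK2, where 30.9% were. The median log2 fold change was 0.07, against −0.000284 over all gene names. The integrity number of the control RNA was lower than that of the treated RNA in this line, and its part in the result cannot be told apart from the treatment.

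MTDH had a level of 13.10 and 13.14 in the TT controls, compared with 13.29 and 13.34 under antagomiR-375. Both treated arrays lay above both controls, by 0.19 and 0.20 within pairs, a 1.15-fold higher signal (log2 fold change SE 0.08, limma's adjusted p = 0.578). C1QBP, EIF4G3 and IGF1R were also higher without overlap, which 22.5% of all gene names were. C1QBP had 14.31 and 14.40 in the controls, compared with 14.44 and 14.43 under antagomiR-375. EIF4G3 had 7.71 and 8.03 against 8.12 and 8.08, and IGF1R had 7.28 and 7.24 against 7.65 and 7.30. For the last pair of genes most of the difference came from the first slide. The second EIF4G3 probe had a log2 fold change of 0.21 without overlap. The third had −0.03 with overlap and pairs of −0.33 and 0.27.

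PDK1 and USP1, lower with the mimic in Nthy-ori 3-1 cells, were also lower with the antagomiR in TT cells, without overlap, as were 20.5% of all gene names. PDK1 had 9.06 and 8.86 in the controls, compared with 8.73 and 8.55 under antagomiR-375, a log2 fold change of −0.32 (SE 0.08, n = 2 pairs). USP1 had 9.73 and 9.61 against 9.52 and 9.52, a log2 fold change of −0.15 (SE 0.09, n = 2 pairs). MTPN, SP1 and ADIPOR2 had log2 fold changes of 0.16, 0.05 and 0.05, with groups that overlapped. JAK2 was not well above background on any TT array, with values of 3.86 and 2.67 for the control and 3.16 and 2.41 for the antagomiR. Its difference, which enters the median and the counts above, is one between values near background and is not read as a change.

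PDPK1 had a level of 8.93 and 8.82 in the TT controls, compared with 9.45 and 9.31 under antagomiR-375. Both treated arrays lay above both controls, with a log2 fold change of 0.50 (SE 0.08, n = 2 pairs) on the main probe and 0.67 (SE 0.12, n = 2 pairs) on the second, and neither passed the adjusted test (limma's adjusted p = 0.512 for both). The PDK1 and PDPK1 probes thus differed in opposite directions in TT cells.

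The mimic and antagomiR responses were set against each other in one model of all 8 arrays with the slide as a block. The difference, the log2 fold change with the mimic minus that with the antagomiR, was −3.18 (SE 0.13) for MTDH, −1.85 (SE 0.13) for C1QBP, −1.38 (SE 0.14) for USP1, −1.38 (SE 0.18) for MTPN, −1.36 (SE 0.19) for EIF4G3 and −1.09 (SE 0.16) for PDK1. These 6 had an unadjusted p of at most 0.05, as had 17.3% of all gene names. By limma 0 of the 10 passed the adjusted test (0% of all gene names), with adjusted p of 0.149 to 0.159 for the 6, which passed with the normexp correction (0.00751 to 0.0231) and with the deposited table (0.00991 to 0.0311), where 3.18% and 2.14% of gene names passed as lower. Levels were lower in both mimic pairs and higher in both antagomiR pairs for 6 of 10 genes, MTDH, C1QBP, MTPN, EIF4G3, ADIPOR2 and SP1, where 9.16% of all gene names were. For ADIPOR2 and SP1 the groups overlapped in both lines. The count uses main probes, and the third EIF4G3 probe was higher in both mimic pairs, by 0.53 and 0.16.

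**Figure D4:**
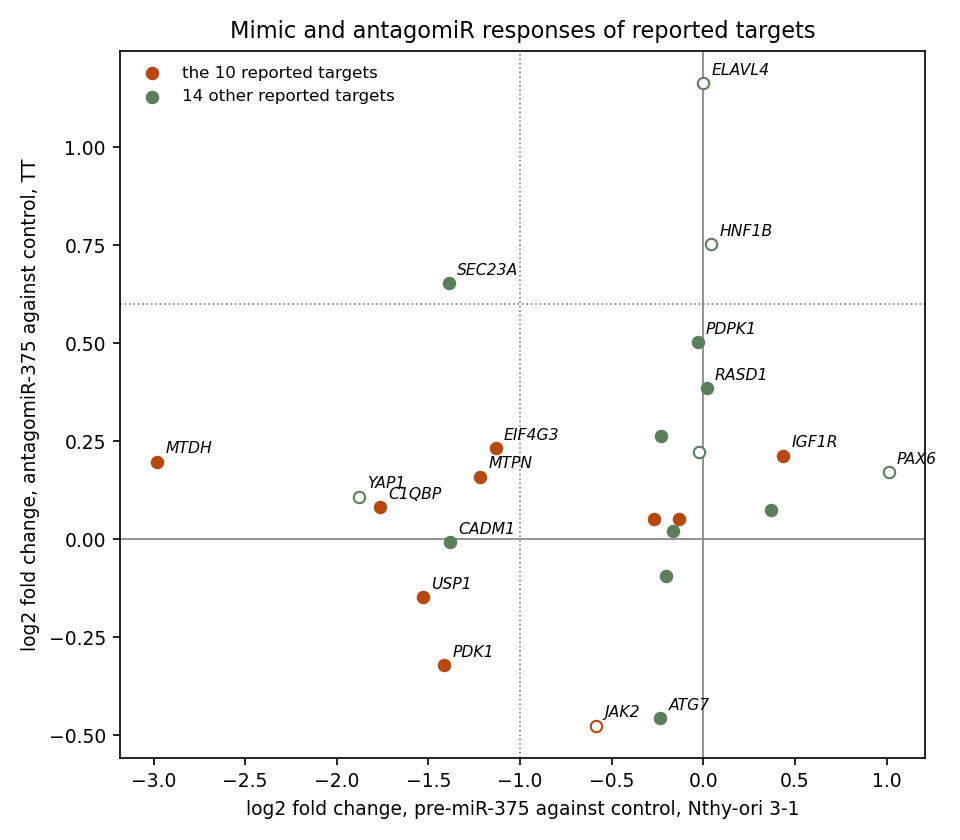
Log2 fold change of the mimic against control in the follicular line (x axis) and of the antagomiR against control in the medullary line (y axis) for the 10 reported targets and 14 other genes reported as targets, open where a probe was not well above background on every array, with dotted lines at −1 and 0.6. SEC23A alone lies in the upper left field beyond both lines, and the reported targets beyond −1 lie between −0.32 and 0.23 on the y axis.

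Before miR-375 was altered, most of the reported targets had lower levels in TT than in Nthy-ori 3-1 control cells. By limma on the 4 control arrays, 7 of 10 genes passed the adjusted test and were lower in TT cells, where 12.6% of all gene names were, and 0 passed and were higher (13.6%). Slide and line cannot be told apart in this comparison, and it shares its control arrays with the comparisons above. The median log2 difference was −0.94, against −0.05 over all gene names. The count rests on few arrays: it was 4 or 3 without either Nthy-ori 3-1 control array and 0 without either TT control array.

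EIF4G3 had a level of 10.19 and 10.21 in Nthy-ori 3-1 control cells and 7.71 and 8.03 in TT control cells, a log2 difference of −2.33 (SE 0.17, limma's adjusted p = 0.00706). USP1 differed by −1.91 (SE 0.25, limma's adjusted p = 0.021), IGF1R by −1.65 (SE 0.12, limma's adjusted p = 0.0068) and C1QBP by −1.003 (SE 0.17, limma's adjusted p = 0.0334). For each of them both TT arrays lay below both Nthy-ori 3-1 arrays. PDK1 and ADIPOR2 also passed, with −0.87 and −0.72 (limma's adjusted p = 0.0322 and 0.0491).

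JAK2 was detected in Nthy-ori 3-1 control cells, at 5.86 and 6.32, and not well above background in TT control cells. The measured values gave a log2 difference of −2.82 (limma's adjusted p = 0.0406). Its signal was at least 5.76-fold higher in Nthy-ori 3-1 cells, taken against the higher of the probe's own value and the lowest signal well above background on each TT array, a limit that was not itself tested. This limit holds for the background-subtracted signal: the log2 difference of −2.82 became −0.805 with normexp, −0.9767 with the median signal and −1.263 with the deposited table, and JAK2 no longer passed when any 1 of the control arrays was left out. SP1 and MTPN differed by −0.66 and −0.79 without passing the test (limma's adjusted p = 0.163 and 0.301), although their control groups did not overlap. In all, 9 genes were lower in TT controls without overlap and 1, MTDH, was higher, where 36.7% and 28.7% of all gene names were. MTDH had the opposite sign, 12.54 and 13.04 in Nthy-ori 3-1 against 13.10 and 13.14 in TT control cells, a log2 difference of 0.33 (SE 0.23, limma's adjusted p = 0.42) that became −0.04 with normalization within each line, a scaling that moved the median of all probes to −0.46. Both TT arrays were above both Nthy-ori 3-1 arrays in the joint normalization. MTDH, the gene with the lowest ratio to control under the mimic among the 10, was thus the only one of them whose TT controls did not lie below the Nthy-ori 3-1 controls there.

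A second list held 14 other genes reported as miR-375 targets, all of them on the array. In Nthy-ori 3-1 cells 3 of 14, SEC23A, YAP1 and CADM1, passed the fold and expression limits, against 1.43% of all gene names and 2.77% of the detected ones, 0 of 14 passed the adjusted test, and the median log2 fold change was −0.10. SEC23A, a coat protein of vesicles leaving the endoplasmic reticulum, had 11.04 and 11.35 on the control arrays, compared with 9.53 and 10.08 under pre-miR-375. In TT cells it had 9.55 and 9.68 against 10.24 and 10.29, and it was the only one of the 14 with a log2 fold change of at least 0.6 at an average above 6. YAP1, the transcriptional coactivator of the Hippo pathway, had 11.70 and 11.37 against 9.81 and 9.51 in Nthy-ori 3-1 cells and was not well above background on any TT array. CADM1, a cell adhesion molecule, had 10.24 and 9.63 against 8.66 and 8.45 in Nthy-ori 3-1 cells and 14.02 and 14.07 against 14.03 and 14.05 in TT cells. The second CADM1 probe had a log2 fold change of −0.71 with the mimic. ATG7 was not counted, since its main probe had −0.23 with the mimic and −0.46 with the antagomiR. The second ATG7 probe, detected on all arrays, disagreed, with −1.26 and 0.54.

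Of 40 relatives and partners of the reported targets on the array, 4 passed the fold and expression limits in Nthy-ori 3-1 cells, IRS1, IRS2, PAQR3 and USP46, against the same 1.43% and 2.77%, 0 passed the adjusted test, and the median log2 fold change was −0.02. IRS1 and IRS2 are the adaptors that carry the signal of IGF1R and of the insulin receptor. IRS2 had 11.16 and 11.49 on the control arrays, compared with 9.83 and 10.16 under pre-miR-375, and the brighter IRS1 probe had 9.24 and 9.09 against 8.16 and 8.04. The second IRS1 probe, detected on all 4 arrays, did not share this, with 6.43 and 6.57 against 6.39 and 6.61. IRS1 was not well above background on any TT array, and IRS2 had a log2 fold change of 0.35 with the antagomiR.

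PAQR3, of the same receptor family as ADIPOR2, had 8.95 and 9.04 on the control arrays, compared with 7.78 and 7.76 under pre-miR-375. In TT cells it had 8.45 and 8.30 against 8.91 and 9.07, a log2 fold change of 0.61 (SE 0.13, n = 2 pairs; limma's adjusted p = 0.512). Of its 2 further probes, 1 had the same signs, with −0.91 for the mimic and 0.37 for the antagomiR, and 1 had 0.09 and −0.17 and was detected on 1 of the 2 Nthy-ori 3-1 control arrays. STAT3, a partner of JAK2, was the other relative past 0.6 at an average above 6 in TT cells. PAQR3 and STAT3 made 2 of 40, against 1.3% of all gene names. STAT3 had 6.79 and 7.02 in the controls, compared with 7.89 and 7.74 under antagomiR-375. Its log2 fold change was 0.91 (SE 0.16, n = 2 pairs; limma's adjusted p = 0.512). Its second probe had 0.80, and in Nthy-ori 3-1 cells STAT3 had 0.34 with the mimic. IGFBP3 and KLF4 also exceeded 0.6 in TT cells and missed this count because their averages were lower. IGFBP3, detected on all TT arrays, had 5.08 and 4.68 in the controls, compared with 6.47 and 6.28 under antagomiR-375. The log2 fold change of IGFBP3 was 1.497 (SE 0.11, n = 2 pairs; limma's adjusted p = 0.512). KLF4 had 0.61 and was detected on 1 of the 2 TT control arrays. USP46, a deubiquitinase that shares the cofactor WDR48 with USP1, had 7.08 and 7.42 against 5.29 and 6.03 in Nthy-ori 3-1 cells, while WDR48 and the USP1 substrates FANCD2 and PCNA had log2 fold changes of 0.16, −0.22 and 0.12. SND1, the nuclease that binds MTDH, had 0.07, and the capping protein genes CAPZA1 and CAPZB, partners of MTPN, had 0.09 and 0.24. The PDK1 paralogs PDK2, PDK3 and PDK4 had 0.29, −0.06 and 1.02 in Nthy-ori 3-1 cells, where PDK4 was detected on 1 of the 2 control arrays, and PDK4 had 0.58 in TT cells.

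Probes that hold the seed match were compared with all probes as a description, with no test. Among 24190 probes detected on all 4 Nthy-ori 3-1 arrays, the median log2 fold change was 0.03 and 3.03% had one of −1 or lower. Of 438 detected probes with GAACAA, the median was −0.15 and 6.85% were at −1 or lower, and of 151 with GAACAAA the median was −0.27 and 10.6% were. For the same letters on the other strand, the shares were 3.6% of 500 probes and 3.08% of 195 probes. In TT cells, 2.38% of 504 detected probes with GAACAA and 2.82% of 177 with GAACAAA had a log2 fold change of at least 0.6, against 3.67% of all 27241 probes. The 2 longer matches that begin with a C, pairing also with base 8, were held by 31 and 10 of all probes and by 0 of the 12. With CGAACAA, 33.3% of 12 detected probes were at −1 or lower in Nthy-ori 3-1 cells and 6.25% of 16 were at 0.6 or higher in TT cells. With the longest match the shares were 33.3% and 0% of 6 probes in either line, numbers too small to read an order from. The C1QBP probe, at −1.76 and 0.08 in the respective lines, was among those with GAACAAA.

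**Figure D5:**
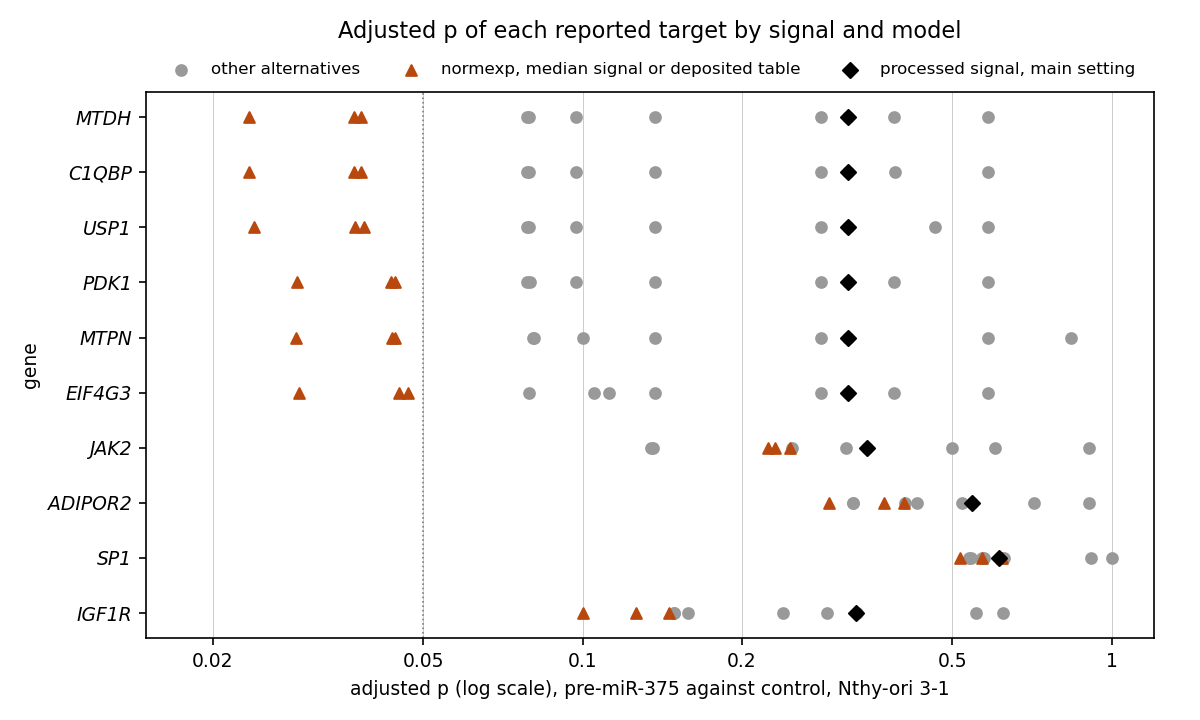
Limma's adjusted p (log scale) of each reported target for pre-miR-375 against control in Nthy-ori 3-1 cells, with a diamond for the main setting, triangles for normexp, the median signal and the deposited table, circles for the other alternatives with a test, and a dotted line at 0.05. The triangles of 6 genes lie left of 0.05 and their diamonds at 0.318; JAK2, ADIPOR2, SP1 and IGF1R lie right of 0.05 throughout.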

How the data were processed

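The authors deposited, for each of the 8 arrays, the spot intensity read by Agilent Feature Extraction 10.10.1.1 (processed, mean, median and background signal, not normalized between arrays), and a table of log2 values. The deposited log2 columns correlated at 0.99777 to 0.99997 with the log2 median signal and had medians of 6.49 in Nthy-ori 3-1 and 6.23 to 6.24 in TT arrays. They were read as quantile normalized within each line, which no source states. The submitters' processing notes name limma. The values are 1-colour signals and have no direction.

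Control spots and outlier spots (341 to 428 per array) were removed, log2 processed intensities were averaged over the spots of a probe, and quantile normalization in limma 3.58.1 (R 4.3.3) was run over all 8 arrays. A limma model with a term for the slide pair was fitted to each line, since equal replicate numbers shared a slide. Differences between replicates of the control and of the treated arrays correlated across detected probes (r = 0.785 in Nthy-ori 3-1 and 0.33 in TT cells). The control groups were compared without a block, and p were adjusted over all probes by Benjamini-Hochberg. A gene was represented by its probe of highest average level. All 10 genes were named; of the other lists, those past a log2 difference of 1 in both pairs of a line at an average of at least 6, and PDPK1. SEC23A, PAQR3, STAT3, IRS2, IGFBP3 and KLF4 in TT cells were added after their values were seen. So were PDK4, ATG7, the marker genes with values and the named partners of members. The marker lists were shortened by 2 genes, which are not reported here. The members and lists were chosen with earlier results of these data known. The study calls its replicates biological; p-values measure the spread between these samples, and the number of arrays limits the precision. The steps were tested on simulated data. Alternatives were other normalizations, background corrections, signals, models and filters, the deposited table and leaving out arrays.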

Additional observations from a re-analysis of the deposited data

How the results depend on the processing

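In Nthy-ori 3-1 cells the sign of each of the 10 log2 fold changes was kept in all 13 alternatives, and the number of reported targets past −1 stayed within 1.5 times of 6. The number passing the adjusted test was 0 in the main setting and 6 with normexp, 6 with the median signal and 6 with the deposited table. The median log2 fold change of the 10 genes moved from −1.17 to −1.226 with scaling to the 75th percentile, −1.108 with normexp, −1.113 with the median signal, −1.099 with the deposited table and −0.9086 with the mean of all detected probes of a gene. Without the replicate block, 0 of the 10 passed in Nthy-ori 3-1 cells, 0 in TT cells and 0 for the difference between the responses. In TT cells 0 passed in any alternative, and JAK2, which was not well above background there, was reversed to 0.00429 with the median signal and 0.006386 with the deposited table. The difference between the responses gave 6 genes with normexp and 6 with the deposited table. For TT against Nthy-ori 3-1 controls, the 7 genes became 2 (EIF4G3 and IGF1R) with the replicate number as a block across the lines, where the numbers pair nothing, and 0 to 4 when a control array was left out. Gene by gene, 27 results of the 7 genes over the alternatives no longer passed, nearly all of them with that block or with an array left out. MTDH was reversed to −0.04066 with normalization within each line. The cause of these changes was not tested. Normalization within each line and the deposited table moved the median of all probes in this comparison to −0.455 and −0.315.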
